A study of Homo sapiens with 4 samples.

Results

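The genes described here are 10 genes of DNA repair and nucleotide supply: XPC, DDB2, DDB1, XPA, ERCC1, ERCC2, ERCC5, ERCC6, POLH and RRM2B. They were listed by symbol with earlier results of these data known, so the share of them called is not a test of the list. All 10 were found among the 57820 gene rows of the count files, and all 10 had enough fragments for the test. RNA came from SY5Y cells, an established human neuroblastoma line that the labels give as MYCN wild type. The libraries were made 12 h after treatment with SGSS05-NS or with its solvent DMSO, with 2 libraries for each condition. The labels give a dose of 3 μM, as does the study's figure legend for the expression data of these cells, while its methods give a lower dose. The title of the series names the compound SGSS05-NS3, an inhibitor of the histone methyltransferase SETD8. The methods call the replicates independent biological replicates, and all of them come from a single cell line.

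Nucleotide excision repair cuts out a short stretch of a DNA strand that carries a bulky lesion, such as the dimers made by ultraviolet light, and fills the gap from the other strand. The lesion is found either anywhere in the genome, by XPC and the DDB1-DDB2 complex, or where it stalls RNA polymerase, with the help of ERCC6 (CSB). The helicase ERCC2 (XPD) of TFIIH then opens the strands, XPA checks the lesion, and the nucleases ERCC1-ERCC4 and ERCC5 (XPG) cut on either side of it. POLH is the translesion polymerase that copies past such dimers, and RRM2B (p53R2) is a ribonucleotide reductase subunit that supplies nucleotides for repair outside S phase. DDB2, XPC, POLH and RRM2B are known targets of the transcription factor p53. The other 6 genes are kept apart from them here, which does not say that none of them is a p53 target.

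With SGSS05-NS, DDB2 rose 2.97-fold, POLH 2.60-fold and RRM2B 1.80-fold. In edgeR's quasi-likelihood test, these 3 were the members that passed the study's threshold, an adjusted p-value under 0.001. Their background is that 6.37% of the 16468 genes tested were higher at this threshold and 8.14% lower, 14.5% in all. At an adjusted p-value under 0.05, 4 members were higher, the 3 and XPC, and 0 lower, where 22.6% of all genes were higher and 23.7% lower. None of the members had an unadjusted p under 0.05 with a lower level, where 27% of all genes tested did. XPC was 1.47-fold higher but missed the threshold in this test. It passed with the likelihood ratio test that the study used (adjusted p = 1.9e-04), which called 2022 of all genes tested higher and 2267 lower. None of DDB1, XPA, ERCC1, ERCC2, ERCC5 and ERCC6 was called in either direction, and their log2 fold changes lay between -0.11 and 0.30. Of these 6 genes, 1 (ERCC5, with a higher level) had an unadjusted p under 0.05 in edgeR's quasi-likelihood test. At this cut, 26.5% of all genes tested were higher and 27% lower. DESeq2 and limma voom called none of the 6 genes. Over all genes tested, the median log2 fold change was 0.01.

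The 4 libraries held between 21463105 and 25350204 fragments on genes in the strand column used. Fragments on no annotated exon of the counted strand made up between 12.3% and 12.4% with DMSO and between 15.3% and 16.1% with SGSS05-NS. These are shares of all fragments, unmapped ones included. The part of this shift in the values below was not tested. The identity of the cells was checked with 8 sympathoadrenal marker genes, which summed to 2747 and 2960 CPM (fragments relative to the TMM-scaled library total) in the DMSO libraries and to 1730 and 1521 CPM with SGSS05-NS. Of the 7 tested markers, 5 were lower at the threshold, among them CHGA, while TH had at most 2 fragments in a library. Markers of other cell types (4 genes) summed to 2.35 and 2.53 CPM with DMSO and to 3.60 and 4.80 CPM with SGSS05-NS. Most of this was EPCAM, with a log2 fold change of 0.97 (edgeR adjusted p = 0.012), while PTPRC and ALB had at most 1 fragment in a library. The part of these markers in the results was not tested. In bulk RNA, a change in the number of cells that express a gene and a change in the RNA per cell cannot be told apart. SETD8 is listed as KMT5A, which rose from 55.7 ± 1.53 CPM (SD) to 82.9 ± 0.095 CPM (SD), a log2 fold change of 0.57 (edgeR adjusted p = 3.7e-04). Without DMSO replicate 1, KMT5A did not pass the threshold (log2 fold change 0.54, edgeR adjusted p = 0.0017).

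DDB2, POLH, RRM2B and XPC, named above as p53 targets, were the members with the largest log2 fold changes. For this reason the DNA near each member's start was searched for the p53 site. This site is a pair of half-sites of 10 bases, each with a C and a G around a pair of A or T bases and with flanks of purines before and pyrimidines after. The best pair was sought on GRCh37 from 1000 bases before to 3000 bases after the annotated gene start, with the cores intact and at most 10 bases between the half-sites. The pairs of 8 members are shown in the direction of the gene, with the letters that fit the half-site in capitals and mismatches and spacer in lower case, so that the full match in DDB2 can be compared with the others.
DDB2: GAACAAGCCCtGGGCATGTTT
XPC: AtcCAAGgCCaaGAGCAAGgCC
DDB1: tGtCATGTggtcGAGCATGagT
XPA: tGcCATGaaagactgaaaAAACTTGCTT
ERCC1: tGGCATGCaCaAGcCTTGCaa
ERCC2: GtACTTGCCTaagaccactcAACAAGgag
ERCC5: AtACTAGTTTcataatttActCTTGTaT
ERCC6: GGcCTTGTgTgatttgGccCTTGCCT
The DDB2 pair lies at chr11:47236530-47236550 on the plus strand, in the untranslated part of an exon, with 0 mismatches and 1 base between the half-sites. Of the 16042 windows of tested genes with a position, 0.418% held a pair with no mismatch. The best pair in XPC had 4 mismatches, and 78.3% of all windows had a pair at least as good. For DDB1, XPA, ERCC1, ERCC2, ERCC5 and ERCC6 the best pair had between 4 and 6 mismatches, which at least 78.3% of all windows matched or bettered. In the RefSeq promoter windows (GRCh38.p14, 250 bases before to 50 after a start), 13 windows belonged to members, none of them to RRM2B, and an exact half-site was found in 1 of them (7.69%), a window of DDB2, against 6.63% of all 35116 windows. A match to these letters is not a measured binding site, and the lack of one says only that the letters are not in the window.

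**Figure D1:**
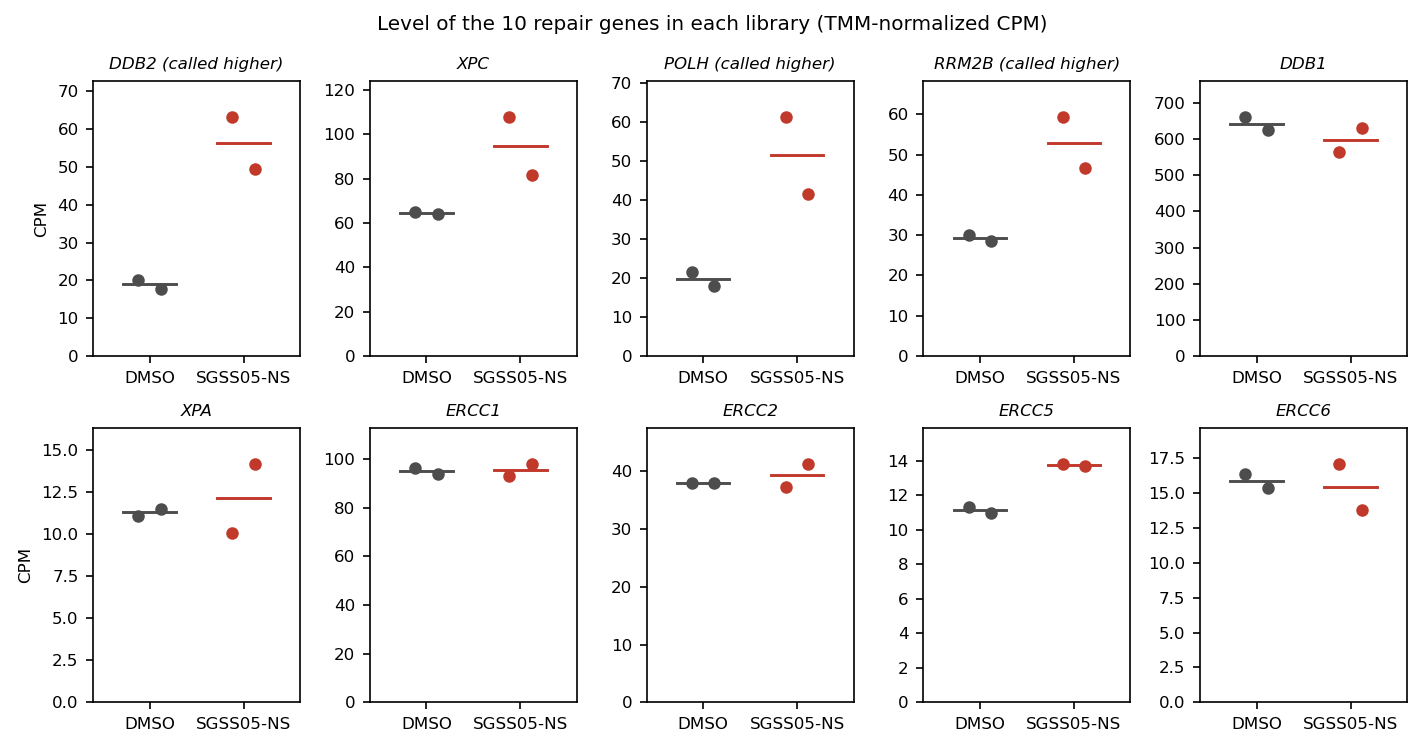
Level of each of the 10 genes in each library, in TMM-normalized CPM on axes that start at 0. Points are the libraries and lines the means of the 2 libraries of a condition. The SGSS05-NS points of DDB2, XPC, POLH, RRM2B and ERCC5 lie above both DMSO points, as they do for 37.8% of all genes tested. In these 5 genes SGSS05-NS replicate 1 is the higher treated library, by little in ERCC5 (13.8 and 13.7 CPM).

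DDB2 (ENSG00000134574.7, chr11:47236016-47260768, plus strand) encodes the subunit of the damaged-DNA binding complex that contacts the lesion. Fragments on it numbered 503 and 416 with DMSO and 1401 and 1163 with SGSS05-NS, or 20.05 and 17.8 CPM against 63.1 and 49.4 CPM. Both treated libraries lay above both controls. By any margin, this held for 37.8% of all genes tested, and for 36.9% both lay below. The mean of the DMSO libraries was 18.9 ± 1.58 CPM and that of the treated ones 56.3 ± 9.67 CPM (SD, n = 2 each). The log2 fold change was 1.57 with a standard error of 0.13 (edgeR adjusted p = 3.4e-06, where edgeR stands for its quasi-likelihood test and the adjustment is that of Benjamini and Hochberg over all genes). DDB2 had rank 207 among all genes by p-value, the first of the members, and its log2 fold change was at the 96.2th percentile of all genes tested. With each library left out in turn, its log2 fold change stayed between 1.38 and 1.74 and its adjusted p-value stayed under the threshold.

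DDB1 (chr11:61066923-61110068, minus strand), the partner that joins DDB2 to the CUL4 ubiquitin ligase, was not called. It had 661 and 625 CPM with DMSO and 566 and 630 CPM with SGSS05-NS, so the conditions overlapped. The log2 fold change was -0.11 with a 95% interval from -0.32 to 0.11 (edgeR adjusted p = 0.40), which leaves out a rise of the size seen for DDB2. DDB1 was by far the most abundant of the 10 genes, with between 12557 and 16577 fragments per library.

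XPC (ENSG00000154767.10, chr3:14186647-14220121, minus strand) encodes the sensor that binds the DNA opposite a lesion. It had 64.8 and 63.9 CPM with DMSO and 108 and 81.6 CPM with SGSS05-NS. XPC shares 24.6% of its exon bases with XPC-AS1 of the opposite strand and 8.91% with ENSG00000268279 of that strand. Both treated libraries were above both controls, but they differed from each other by more than the controls did. The log2 fold change was 0.56 with a standard error of 0.12 (95% interval from 0.29 to 0.82, edgeR adjusted p = 0.0030), short of the threshold of 0.001. This call depended on single libraries: without SGSS05-NS replicate 1 the log2 fold change was 0.34 (edgeR adjusted p = 0.015), without SGSS05-NS replicate 2 it was 0.74 (adjusted p = 1.5e-05), and without DMSO replicate 1 it was 0.56 (adjusted p = 9.4e-04). XPC also passed with the likelihood ratio test that the study used (adjusted p = 1.9e-04) and with the replicate number as a block (adjusted p = 2.7e-04). Of 16468 genes, these called 2022 higher and 2267 lower, and 1759 and 2007. The quasi-likelihood test with no block called fewer, 1049 and 1341. XPC passed too with DESeq2 (adjusted p = 7.6e-04) and with no filter on low counts (adjusted p = 9.3e-06). Over these settings the adjusted p of XPC ranged from 9.3e-06 to 0.015.

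POLH (ENSG00000170734.7, chr6:43543922-43588260, plus strand), the polymerase that is missing in the variant form of xeroderma pigmentosum, had 540 and 419 fragments with DMSO and 1356 and 977 with SGSS05-NS. In CPM these were 21.5 and 17.9 against 61.1 and 41.5, with no overlap between the conditions and the widest gap between treated libraries of the 10 genes, 1.47-fold. The log2 fold change was 1.38 with a standard error of 0.16 (edgeR adjusted p = 4.7e-05), and it stayed between 1.07 and 1.63 with single libraries left out. The other translesion genes did not rise with it at the threshold. Of 8 genes in this group POLH was the only one called, where 14.5% of all genes tested were called. MAD2L2 (REV7) had a log2 fold change of 0.38 and REV3L, the catalytic subunit of polymerase zeta, one of 0.33 (edgeR adjusted p = 0.0057 and 0.033). Without SGSS05-NS replicate 1, the value of REV3L was 0.16, and it was 0.25 without DMSO replicate 1.

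RRM2B (ENSG00000048392.7, chr8:103216730-103251189, minus strand) had 30.2 and 28.5 CPM with DMSO and 59.3 and 46.6 CPM with SGSS05-NS. The treated libraries lay above both controls. The log2 fold change was 0.85 with a standard error of 0.12 (95% interval from 0.58 to 1.11, edgeR adjusted p = 1.7e-04), and it stayed between 0.66 and 1.01 with single libraries left out, past the threshold in each case. The best p53 site pair of this gene, not printed here, lies in an intron 2102 bases from the gene start, with no spacer and 1 mismatch, and 3.10% of all windows held one as good. RRM2, the paralogue that serves S phase, moved the other way. Its fragments numbered 8842 and 8839 with DMSO and 5305 and 5272 with SGSS05-NS, and it fell from 365 to 232 CPM, a log2 fold change of -0.66 (edgeR adjusted p = 1.8e-04). Of the fragments on the 2 genes together, RRM2B held 7.89% and 7.02% with DMSO and 19.9% and 17.2% with SGSS05-NS. RRM1, the large subunit that pairs with either of them, had a log2 fold change of -0.19 with an interval from -0.38 to 0.01.

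The members of the later steps showed small differences, each with conditions that overlapped except for ERCC5. XPA (chr9:100437191-100459622, minus strand) had 11.1 and 11.5 CPM with DMSO and 10.05 and 14.2 CPM with SGSS05-NS, and a log2 fold change of 0.10 (interval from -0.26 to 0.47). With between 223 and 333 fragments per library, XPA had the widest interval of the 10 genes. ERCC2 (chr19:45853095-45874176, minus strand) had 38.1 CPM in both DMSO libraries and 37.3 and 41.3 CPM with SGSS05-NS, and a log2 fold change of 0.05 (interval from -0.17 to 0.27). ERCC6 (chr10:50662214-50747584, minus strand), the longest of the members at 85.4 kb, had 16.3 and 15.4 CPM against 17.1 and 13.8 CPM, a log2 fold change of -0.04 (interval from -0.34 to 0.26). For these genes the intervals leave out a 2-fold rise and fall, and they do not show that the levels were equal.

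ERCC1 (chr19:45910592-45982086, minus strand), which holds the nuclease ERCC4 on the DNA, had 96.2 and 93.8 CPM with DMSO and 92.9 and 98.0 CPM with SGSS05-NS. Its log2 fold change of 0.0073 (interval from -0.19 to 0.21) was the smallest of the members. ERCC1 shares 28.6% of its exon bases with POLR1G, a gene of the opposite strand, so strand matters for its counts. Without regard to strand it kept only between 67.1% and 68.1% of its fragments, with a log2 fold change of -0.025. In the same way XPC kept between 77.0% and 81.0% and ERCC2, which overlaps KLC3 of the opposite strand, between 82.9% and 86.2%. The fragments on the strand opposite to ERCC1 numbered 447 and 413 with DMSO and 301 and 327 with SGSS05-NS and were lower at the threshold (log2 fold change -0.67, edgeR adjusted p = 2.3e-04 in a fit of that strand, where 9.43% of genes were called). POLR1G had 22.7 and 21.6 CPM against 16.9 and 16.8 CPM.

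ERCC5 (chr13:103498181-103528345, plus strand) had 284 and 256 fragments with DMSO and 307 and 322 with SGSS05-NS, or 11.3 and 10.96 CPM against 13.8 and 13.7 CPM. Both treated libraries were above both controls, with a log2 fold change of 0.30 (interval from 0.02 to 0.59, edgeR adjusted p = 0.076). The counts of ERCC5 are a partial measure of the gene. In GENCODE release 44, 91.7% of the bases of its transcript with the longest coding sequence are also exons of the read-through gene BIVM-ERCC5 on the same strand, which leaves 324 bases of that transcript to ERCC5 alone. STAR leaves out fragments that fall on exons of 2 genes, and BIVM-ERCC5 was listed at 0 in all 4 libraries. BIVM, the upstream part of the read-through, had 23.6 CPM in both DMSO libraries and 17.5 and 16.7 CPM with SGSS05-NS. No other member shared exon bases with another gene on its own strand in that release, which is later than the one the authors counted with.

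**Figure D2:**
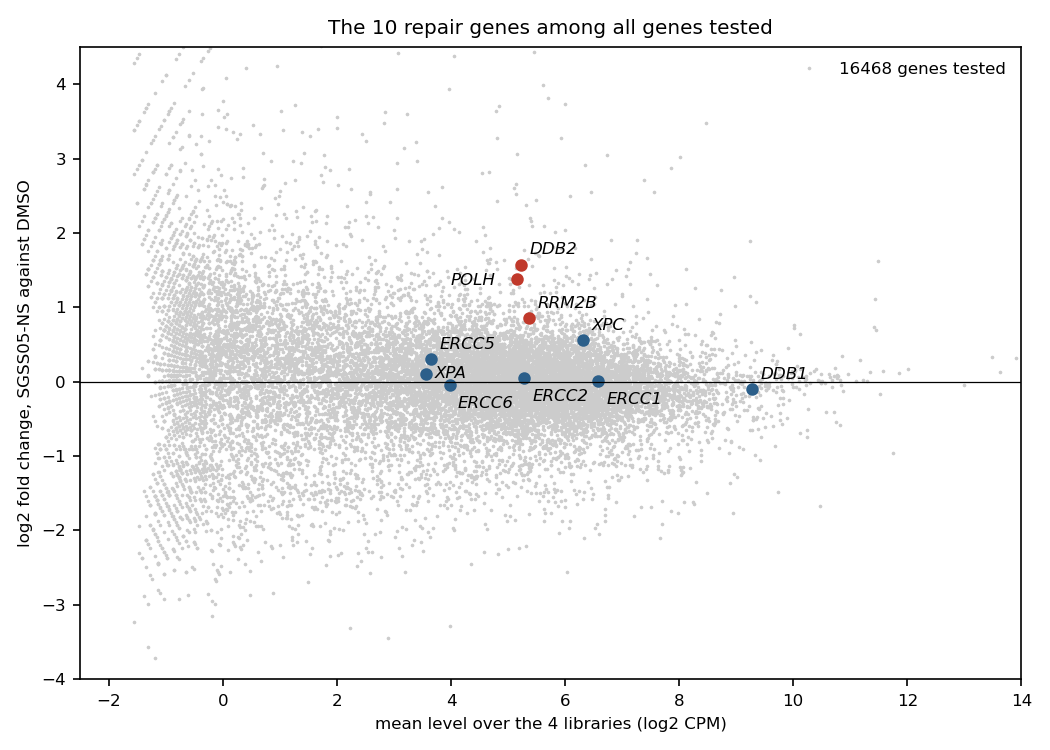
Log2 fold change of SGSS05-NS against DMSO (vertical axis) and mean level over the 4 libraries in log2 CPM (horizontal axis) for the genes tested (grey), with the 10 repair genes named, in red where the adjusted p-value was under 0.001 and in blue otherwise. DDB2 (1.57), POLH (1.38) and RRM2B (0.85) are the red points, and the axes leave out 46 of the genes tested.

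Levels of different genes were compared per length, as CPM per kb of exon. With DMSO the order from the top was DDB1 (41.4), ERCC1 (17.0), XPC (13.9), XPA (6.21), ERCC2 (5.49), RRM2B (5.45), DDB2 (3.91), POLH (2.36), ERCC5 (1.01) and ERCC6 (0.69). Of the neighbours in this order, only ERCC2 and RRM2B overlapped between their libraries. With SGSS05-NS, DDB2 stood at 11.6 CPM per kb and took the fourth place, next to RRM2B at 9.82, and the libraries of these 2 genes overlapped. XPC stood at 20.4 CPM per kb and ERCC1 at 17.1. POLH, at 6.13 CPM per kb, overlapped with XPA at 6.66 and ERCC2 at 5.67. The level of ERCC5 rests on the part of its exons that it does not share and is not comparable with the others. The exon length decides much of the order: with coding length in place of all exon bases, 4 of the 10 genes kept their place with DMSO, and DDB1 and ERCC1 were the first 2 in either case.

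**Figure D3:**
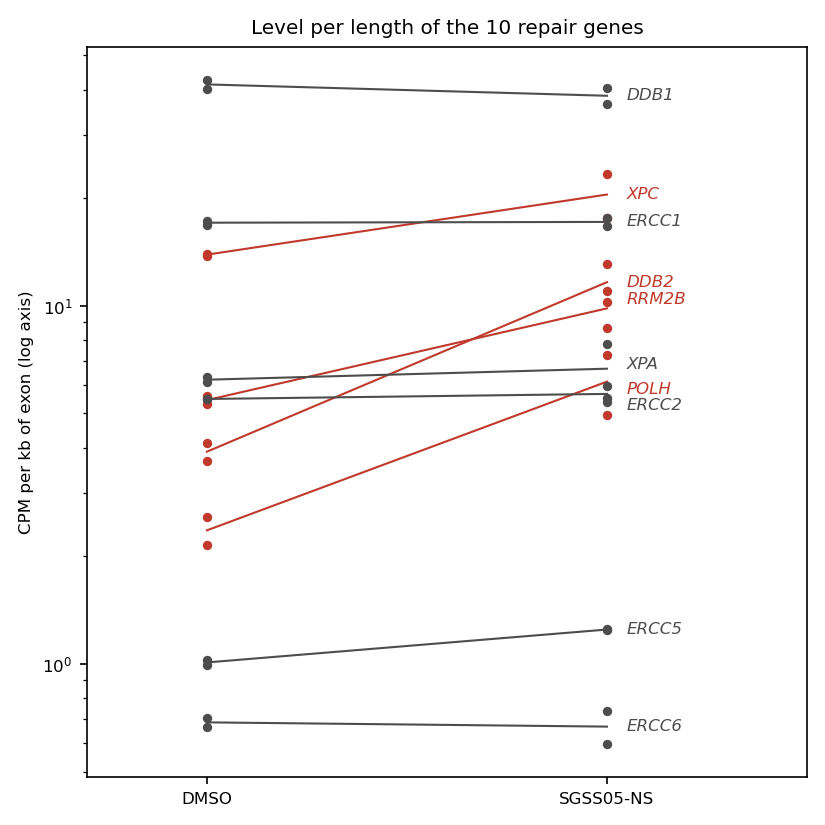
Level of the 10 genes in CPM per kb of exon (log axis) with DMSO and with SGSS05-NS. Points are libraries, lines join the means, and DDB2, XPC, POLH and RRM2B are in red. DDB2 goes from 3.91 to 11.6 and passes XPA, ERCC2 and RRM2B, while DDB1 stays first at 41.4 and 38.5.

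To place the members in their pathway, 71 genes of 7 groups were compared in the same fit, and 70 of them had enough fragments. GTF2H4 was listed at 0 in all 4 libraries. The cause of this was not tested, and the count does not show that the gene is not expressed. Of the 60 tested genes that were not members, 0 were higher and 1, RRM2, was lower at an adjusted p-value under 0.001 in edgeR's quasi-likelihood test. Over all genes tested, 6.37% were higher and 8.14% lower at this threshold. At an unadjusted p under 0.05, 6 of the 60 were higher and 20 lower, where 26.5% of all genes tested were higher and 27.0% lower. DESeq2 called 0 higher and 3 lower, and limma voom 0 and 1. Over all 16468 genes tested, DESeq2 called 1126 higher and 1576 lower, and limma voom 1005 and 1306. The median log2 fold change of the 60 genes was -0.14, against 0.01 over all genes tested.

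Among 9 genes of damage recognition, DDB2 was the only one called in edgeR's quasi-likelihood test. Of all genes tested, 14.5% were called in either direction, so the counts in groups this small say little. RBX1 and CETN2, the RING subunit of the CUL4 ligase and the small partner of XPC, had log2 fold changes of -0.62 and -0.65 (edgeR adjusted p = 0.0048 and 0.0053), and CETN2, named after its value was seen, ranged from -0.82 to -0.50 with single libraries left out. Both passed the threshold with the likelihood ratio test and with no filter, and CETN2 also with the replicate block and without DMSO replicate 2. RAD23B, which stabilizes XPC, had a log2 fold change of -0.06. Of 7 genes of transcription-coupled repair none was called, the smallest p-values being those of XAB2 (log2 fold change 0.38, edgeR adjusted p = 0.0059), ELOF1 (0.26) and ERCC8 or CSA (-0.24). Of 9 tested subunits of TFIIH none was called either. Here GTF2H5, MNAT1 and GTF2H2 had log2 fold changes of -0.50, -0.45 and -0.35, and the adjusted p of GTF2H5 was 0.0072 in edgeR's test.

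In the steps of verification and incision, 0 of 7 genes were called, where 14.5% of all genes were. RPA3 (log2 fold change -0.48, edgeR adjusted p = 0.0013) and RPA1 (-0.35), subunits of the single-strand binding protein RPA, had the smallest p-values, and RPA3 passed the threshold with DESeq2, the likelihood ratio test, the replicate block, no filter, and without SGSS05-NS replicate 1. Among 17 genes that fill and seal the gap, 0 were called in edgeR's quasi-likelihood test, where 14.5% of all genes were, and 12 had a negative log2 fold change, as did 49.0% of all genes. RFC3 (-0.46) and RFC1 (-0.42), which load the clamp, and POLD2 (-0.40), a subunit of polymerase delta, had the smallest p-values here (edgeR adjusted p = 0.0027, 0.0029 and 0.0062). RFC3 passed with the likelihood ratio test, DESeq2, no filter, the replicate block and without SGSS05-NS replicate 2. RFC1 passed with the likelihood ratio test and with no filter. POLD2 passed with no filter and without DMSO replicate 2, and had a log2 fold change of -0.30 without DMSO replicate 1. PCNA, the clamp itself, is also a known p53 target and was named after its value was seen. It had 7910 and 7379 fragments with DMSO and 6070 and 5994 with SGSS05-NS, a log2 fold change of -0.26 (edgeR adjusted p = 0.038). Of 13 genes of nucleotide supply, RRM2B was higher and RRM2 lower at the threshold, where 14.5% of all genes were called. DTYMK, the thymidylate kinase, had a log2 fold change of -0.45 (edgeR adjusted p = 0.0023). DTYMK passed the threshold with the likelihood ratio test, no filter and the replicate block.

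**Figure D4:**
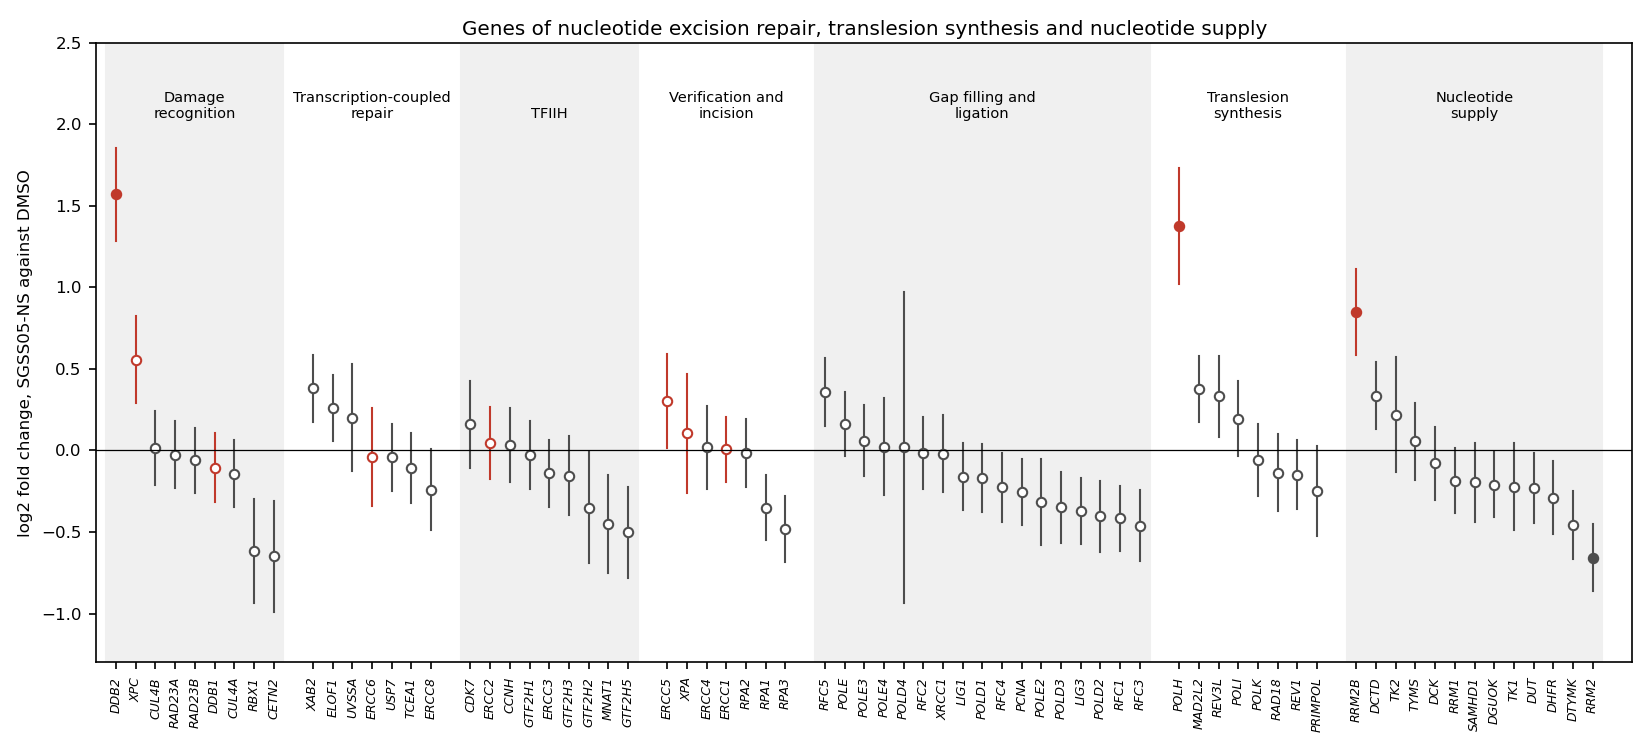
Log2 fold change of SGSS05-NS against DMSO with its 95% interval for each tested gene of the 7 groups, with the 10 members in red and the other genes in grey. Filled points passed an adjusted p-value of 0.001: DDB2, POLH and RRM2B above 0 and RRM2 below 0.

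The genes whose profile over the 4 libraries was most like that of DDB2, by Euclidean distance of the centred log2 CPM, were RGMA (distance 0.09), INSYN1 (0.10), TPBG (0.12), MAMDC4 (0.13) and RNU1-1 (0.13). Their log2 fold changes were between 1.59 for TPBG and 1.85 for MAMDC4, and none of them is among the 71 repair genes. RNU1-1 has near-identical copies, so its count is uncertain. The distance runs over 4 libraries only, and both conditions are among them. In genomic length, DDB2, POLH and RRM2B span 24.8, 44.3 and 34.5 kb. DDB1, XPA, ERCC1, ERCC2, ERCC5 and ERCC6 span between 21.1 and 85.4 kb.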

How the data were processed

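RNA of the 4 SY5Y libraries was sequenced as paired reads of 125 bases. Per the methods and labels, the authors used Trimmomatic 0.30 for trimming and STAR 2.4.2a for alignment to hg19 and for counting on GENCODE 19, and deposited the raw counts without normalization or pooling. The reverse-strand column was used. Symbols, positions and lengths came from GENCODE 44 on GRCh37 and matched 55538 of 57820 identifiers. The test was edgeR 4.0.16 under R 4.3.3 (TMM scaling, low counts removed by filterByExpr, quasi-likelihood test with no covariate, Benjamini-Hochberg over 16468 genes, threshold 0.001). A standard error is the log2 fold change divided by the square root of F, and 95% intervals use the total degrees of freedom of the test. With 2 libraries against 2, the spread of a gene is largely estimated from other genes. A p-value sets the difference between the conditions against that spread, for these libraries only. The replicates of a condition differed by more than counting noise (chi-square divided by its degrees of freedom 8.76 and 11.8).

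The members and lists were chosen with earlier results of these data known. Named by rule were the members, the 3 of each repair group with the smallest p, RRM2, p53 context genes and 5 nearest profiles. The p53 context genes named here are KMT5A, MDM2, CDKN1A and GADD45A, with log2 fold changes of 1.26, 4.68 and 2.92 for the last 3. CETN2, PCNA, RRM1 and RAD23B were named outside this rule, as were cell markers, overlapping genes and GTF2H4. Alternatives were the likelihood ratio test, DESeq2 1.42.0, limma 3.58.1 voom, other scalings and filters, a replicate block, unstranded counts, a threshold of 0.05 and each library left out. The fit was tested on simulated data. The search for pairs of p53 half-sites was added after the data were seen. A few items of the lists, and the search result for POLH, are not reported here.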

Additional observations from a re-analysis of the deposited data

Results flagged for a closer look

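Fragments on the strand opposite to XPC, a column that no comparison above uses for this gene, numbered 9 and 5 with DMSO and 16 and 39 with SGSS05-NS. Their log2 fold change was 1.74 with a standard error of 0.47 (edgeR adjusted p = 0.0070 in a fit of that strand), above the level in the controls but short of 0.001. They made up between 0.334% and 1.99% of the fragments on XPC in either direction. XPC-AS1, annotated on that strand, had between 2 and 4 fragments per library. ENSG00000268279 is also annotated there, and its count is not given here.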

How the results depend on the processing

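DDB2, POLH and RRM2B were higher past the threshold under each of the 13 alternatives fitted, and RRM2 lower. The count of members called higher was 3 or 4, the difference being XPC. For members that were not called, the log2 fold change crossed 0 under some alternatives: ERCC1 was at -0.020 with no filter, -0.025 with unstranded counts and between -0.031 and 0.038 with a library left out, and in the same way XPA ranged from -0.17 to 0.32, ERCC2 from -0.028 to 0.11 and ERCC6 from -0.21 to 0.11, each turning without SGSS05-NS replicate 2 and ERCC1 also without DMSO replicate 2; the cause was not tested. Of the 60 other repair genes, 7 were lower with the likelihood ratio test, 3 with DESeq2 and 8 with no filter on low counts. Over all genes, these settings gave 2267 of 16468, 1576 of 16468 and 2570 of 30755 lower. Once the threshold was 0.05, 16 of the 60 were lower and 6 higher, where 23.7% of all genes were lower and 22.6% higher. The replicate block gave 5 lower and 0 higher; replicate numbers are shared by the labels only, and same-numbered libraries deviated with a correlation of 0.06 across genes. With coding length 4 members kept their place in the order of levels. A half-site with up to 1 mismatch was found in 5 of the 13 promoter windows of members (38.5%), which belong to 4 members, against 32.6% of all windows. Over all 16468 genes, the likelihood ratio test gave 2022 higher and 2267 lower, and the replicate block 1759 and 2007. No filter gave 2034 and 2570 of 30755 genes. The standard errors of the members were between 0.091 (ERCC1) and 0.17 (XPA).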
